A study of Mus musculus with 23 samples.

Results

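Mouse spermatocytes late in meiotic prophase were compared with spermatocytes at its start, across all genes measured on Affymetrix arrays. The late prophase group held 3 arrays, 1 of late-pachytene cells and 2 of diplotene cells. The early group held the 3 wild-type leptotene/zygotene arrays, so 6 of the 23 arrays of the series were compared, chosen by their titles and not by any measured value. All 6 held RNA of cells sorted from testes after staining of their DNA with a Hoechst dye, from wild-type F1 males of a C57BL6xDBA2J cross aged 10 to 16 weeks. The labels call the leptotene/zygotene and the diplotene arrays biological replicates, and the single late-pachytene array has no replicate of its own. The other 14 wild-type arrays, of spermatogonia, pre-leptotene, early pachytene, mid-pachytene and round spermatid fractions, were fitted too, to estimate the spread. The single early pachytene array, a group of its own in that fit, added nothing to that estimate. Each of 3 arrays held cells of Spo11-/- males of the same age, which lack the enzyme that starts meiotic recombination; the leptotene/zygotene array among them, from pooled testes, is given beside some results as a single value. A fraction is a bulk sample, so fewer cells of a type and less RNA per cell cannot be told apart.

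In leptotene, chromosomes are cut by SPO11 at sites marked by PRDM9, and the strand exchange protein DMC1 then helps to search for the homologous chromosome. Homologues become zipped together by the synaptonemal complex in zygotene and are fully paired in pachytene, when the largely unpaired X and Y chromosomes are silenced inside the sex body. In diplotene the complex comes apart and the cell readies itself for the meiotic divisions. Spermatocytes also make and store many of the transcripts that the haploid spermatid will use to build the acrosome, the enzyme-filled cap of the sperm head, and the flagellum.

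Values are log2 of the deposited intensity plus 1. A gene rose or fell when the limma test over the wild-type arrays gave a Benjamini-Hochberg adjusted p under 0.05 and a change of at least 1 on the log2 scale. Of 13087 genes tested, 7204 (55.0%) passed: 3297 (25.2%) rose and 3907 (29.9%) fell, with a median change of -0.05 over all genes. The median change was 2.20 among genes that rose and -2.37 among those that fell, and 214 genes rose by 4 or more against 600 that fell by as much. The arrays of the groups did not overlap for 9038 genes (69.1%): 4203 (32.1%) had every late prophase array above every leptotene/zygotene array and 4835 (36.9%) had the reverse. Of all genes tested, 6976 (53.3%) both passed the test and did not overlap. In 398 of the genes that rose, every leptotene/zygotene array lay below log2 4, the level taken here as background, and in 523 of those that fell every late prophase array did. Where all arrays of a group were below it, a change is given below as a bound, the mean of the brighter group against log2 4; where only some were, the change is given as measured unless the mean of that group was below log2 4.

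The 3 leptotene/zygotene arrays correlated with each other at r between 0.962 and 0.976 across genes, the 3 late prophase arrays at 0.940 to 0.977, and arrays of different groups at 0.616 to 0.805. Leptotene/zygotene array 3 was at least 1 above the other arrays of its group for 840 genes, and diplotene array 2 was at least 1 below the other late prophase arrays for 1133 genes and above them for 670. Without both of these arrays 6748 genes passed. With 1 array left out at a time, 6810 to 7361 genes passed.

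**Figure D1:**
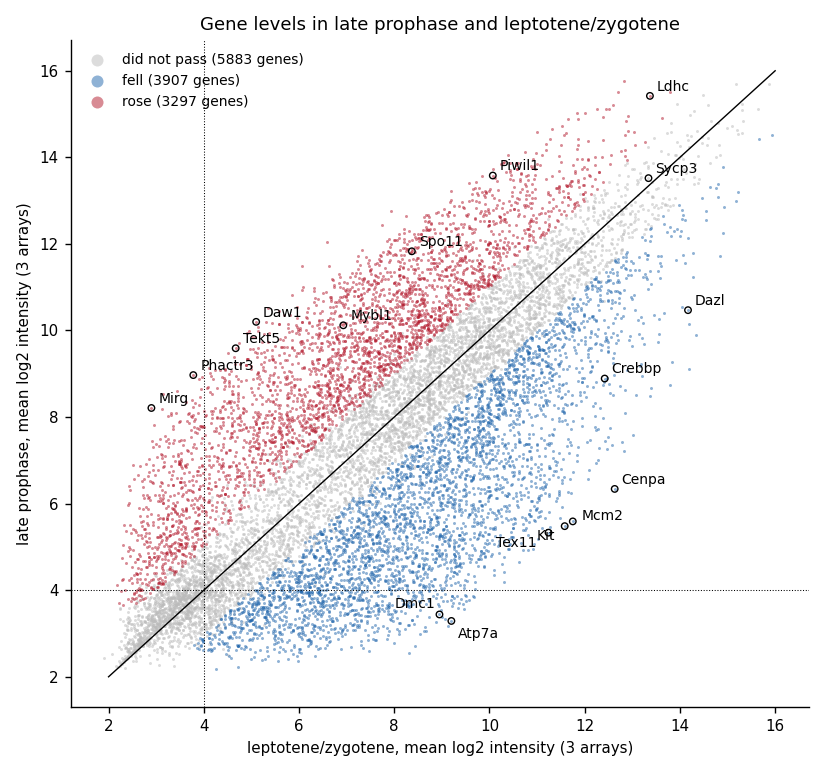
Mean log2 intensity of each of 13087 genes in the 3 late prophase arrays (vertical axis) against the 3 leptotene/zygotene arrays (horizontal axis), with red for genes that rose, blue for genes that fell and grey for the rest; dotted lines mark log2 4. Kit, Mcm2 and Cenpa lie far below the diagonal, Phactr3 and Daw1 far above it, and Sycp3 near it.

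Among genes with at least 1 array at log2 4 or more in each group, the largest measured fall was that of Cenpa, the histone H3 variant that marks centromeres. Cenpa was at 12.54, 12.64 and 12.72 in the leptotene/zygotene arrays, 8.32 in late pachytene and 6.64 and 4.04 in diplotene. The early arrays had an SD of 0.09 and the late ones of 2.16 (n = 3 each), and all late arrays were lower. The change was -6.30 ± 0.72 (SE; 78.6-fold lower; limma adjusted p = 1.25e-06). Rps6ka6, an X-linked kinase gene of the RSK family, fell by 6.11, Mcmbp, whose protein binds the MCM helicase, by 5.98, and Bnc1, a zinc finger factor of germ cells, by 5.96. Dusp9, an X-linked phosphatase gene, fell by 5.90 and Galnt12, a glycosyltransferase gene, by 5.88. Depdc7 reached log2 4 in 1 of 3 late arrays and was at least 44.3-fold lower.

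Genes of the spermatogonial list, factors of the dividing cells that precede meiosis, fell together: 16 of 18 tested fell and 1 rose. Their median change was -4.73, while 29.9% of all genes tested fell and 25.2% rose. Kit, the receptor of differentiating spermatogonia, was at 10.64, 12.22 and 11.89 in leptotene/zygotene, 6.08 in late pachytene and 5.01 and 5.34 in diplotene. All late arrays lay more than 4 log2 units under the lowest early one, and the change was -6.11 ± 0.47 (SE; adjusted p = 2.82e-08). Another probe set of Kit, with a leptotene/zygotene mean of 6.94, fell by 1.88. Zbtb16, a factor of undifferentiated spermatogonia, fell by 5.33 and the X-linked Sox3 by 5.08. Sohlh1, at log2 4 or more in 1 of 3 late arrays, was at least 36.8-fold lower. Id4 went the other way, with a rise of 2.52, and Neurog3, below log2 4 in all late arrays, did not pass. The list's median level was 9.95, 10.15 and 9.56 in the leptotene/zygotene arrays, 6.24 in late pachytene and 5.12 and 4.47 in diplotene. In the 2 mid-pachytene arrays it was still 8.81 and 9.11, and all late prophase arrays lay below these. The spermatogonia arrays themselves had list medians of 9.03, 8.24, 8.38 and 9.83. Only the last lay within the range of leptotene/zygotene, and the others were below it.

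Of 9 meiotic entry genes, 4 fell and 0 rose, beside 29.9% and 25.2% of all genes tested. The list's median change was -0.85. Stra8, which the retinoic acid signal switches on at entry into meiosis, was at 12.54, 12.02 and 12.29 in leptotene/zygotene, 8.68 in late pachytene and 8.19 and 6.27 in diplotene. It fell by 4.57 (SE 0.85, adjusted p = 0.000173), and the groups did not overlap. The X-linked Scml2 and Rhox13 fell by 5.82 and 5.02. Prdm9, the histone methyltransferase that places recombination hotspots, was at 4.77, 4.76 and 4.49 in the early arrays and below 4 in all late ones, so its fall was at least 1.59-fold, a bound under the fold minimum of the test. The cohesin genes Rec8 (-0.85), Smc1b (-0.40) and Stag3 (0.91) did not pass. Without leptotene/zygotene array 2, 1 gene of the list rose.

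DNA replication genes fell in 21 of 30 cases and rose in 2, beside 29.9% and 25.2% of all genes tested. Their median change was -2.14. Mcm2, a subunit of the replicative helicase, was at 11.29, 11.90 and 12.07 in leptotene/zygotene, 6.98 in late pachytene and 5.75 and 4.03 in diplotene, a change of -6.17 ± 0.67 (SE; adjusted p = 6.88e-07). Its levels went down from early to late arrays with no overlap. On the probe set used, Orc1, of the origin recognition complex, lay below log2 4 in every late array and was at least 24.8-fold lower. Another Orc1 probe set fell by 1.24, from a mean of 5.73 to 4.49. Mcm4 fell by 5.48 and the licensing factor Cdt1 by 5.28. Helicase and clamp genes did not all move together, since Mcm7 (-0.86) and Pcna (-0.23) did not pass, and Gins1 and Gins2 rose by 1.09 and 1.15. Without leptotene/zygotene array 1 neither of those rises passed.

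Among break formation genes, which act with SPO11, 4 of 6 fell and 1 rose, beside 29.9% and 25.2% of all genes tested. Rec114 fell by 3.85, Mei1 by 2.93 and Mei4 by 2.34. The gene that rose was Spo11 itself, at 7.42, 8.73 and 8.95 in leptotene/zygotene, 11.27 in late pachytene and 11.23 and 13.00 in diplotene. All late arrays were above all early ones, with a change of 3.47 ± 0.71 (SE; 11.0-fold; adjusted p = 0.000404). Its level was 5.21 in the Spo11-/- leptotene/zygotene array, within the 4.60 to 6.69 of the wild-type spermatogonia; whether the probe set covers the deleted part is not known here, so this level does not check the label.

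Of 14 strand exchange genes, 7 fell and 2 rose, beside 29.9% and 25.2% of all genes tested. Dmc1, the meiotic recombinase, was at 8.58, 9.28 and 9.0 in the leptotene/zygotene arrays, 3.24 in late pachytene and 3.73 and 3.36 in diplotene. On the probe set used it left the range above background altogether, which makes the fall at least 30.9-fold (limma adjusted p = 7.09e-09). Another Dmc1 probe set fell by 2.15, from a mean of 7.7 to 5.56, and so stayed above log2 4. Brca1 fell by 3.90 and Rpa2, a single-strand binding protein gene, by 3.47, whereas Hsf2bp, which works with BRCA2, rose by 2.44 and Psmc3ip, a partner of DMC1, by 2.37. The list's median change was -0.88, and -0.59 when the single late-pachytene array alone was set against leptotene/zygotene. In both arrays of mid-pachytene Dmc1 was at 6.30 and 6.89, between the groups.

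Genes with every late array below log2 4 and the highest early levels included, beside Dmc1 and Orc1, 6 others. The X-linked copper transporter gene Atp7a was at 9.41, 9.28 and 8.91 in leptotene/zygotene and at 3.80, 3.58 and 2.49 in late pachytene and diplotene, at least 36.8-fold lower. The transcription factor gene Ebf3 was at 8.71, 9.64 and 9.03 against 3.13, 2.78 and 3.64, at least 35.0-fold lower. On the probe sets used, each of these genes was well above background before pachytene and at background in all late arrays. Galnt1, which starts O-glycosylation, Trappc2, of vesicle transport, the lysosomal Ctsa and the autophagy gene Atg16l1 behaved alike, with bounds of -5.07, -4.91, -4.87 and -4.64 on the log2 scale. The other probe set of Ctsa, near background in both groups, differed by 0.28 in the opposite direction. Other probe sets of Atp7a and Galnt1 fell by 4.27 and 4.35, to late means of 4.29 and 4.41, above log2 4.

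**Figure D2:**
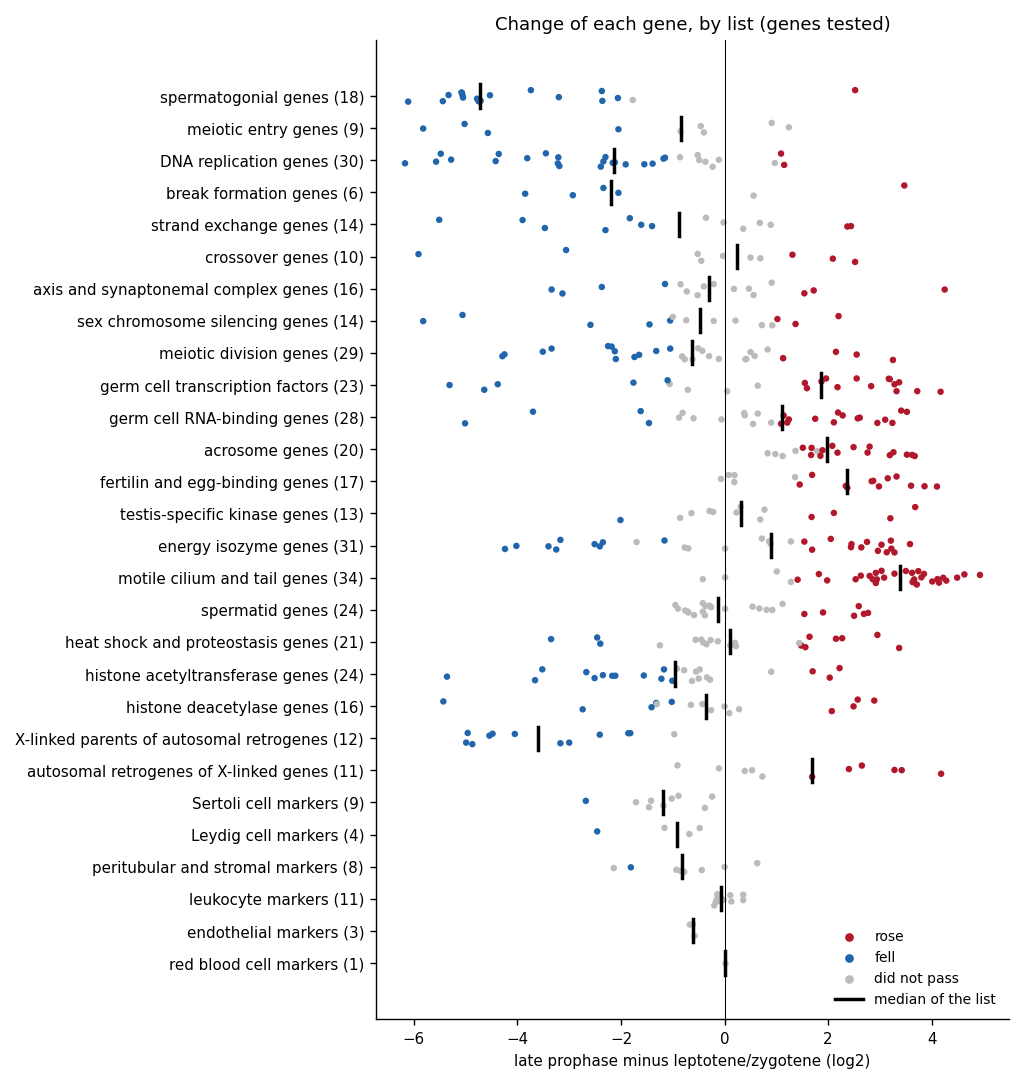
Change of each tested gene (late prophase minus leptotene/zygotene, log2) in each of 28 gene lists, with red for genes that rose, blue for those that fell, grey for those that did not pass and a black bar at the list median; numbers in brackets are genes tested. Motile cilium and tail genes sit almost wholly to the right of 0 with a median of 3.39, and spermatogonial genes almost wholly to the left with a median of -4.73.

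Genes that build the motile cilium and sperm tail rose in 30 of 34 cases and fell in 0, with a median change of 3.39, while 25.2% of all genes tested rose. Tekt5, a tektin of flagellar microtubules, was at 3.54, 3.47 and 6.98 in leptotene/zygotene, 9.29 in late pachytene and 9.75 and 9.73 in diplotene. Early array 3 lay apart from the other early arrays, yet all late ones were higher, and the change was 4.93 ± 0.75 (SE; adjusted p = 2.39e-05). Cfap61 rose by 4.63, Spef2 by 4.49 and the dynein intermediate chain gene Dnaic1 by 4.28, while Akap4 (-0.42), the main protein of the fibrous sheath, and Odf1 (0.01), of the outer dense fibres, did not pass. Median levels of the list were 7.56, 7.73 and 9.11 in leptotene/zygotene, 10.61 in late pachytene, 11.09 and 11.27 in diplotene and 11.99 to 12.18 in round spermatids. In the Spo11-/- leptotene/zygotene array the median was 3.58, below background.

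Acrosome genes rose in 15 of 20 cases and fertilin and egg-binding genes in 12 of 17, and 0 fell in either list. Median changes were 1.98 and 2.37, while 25.2% of all genes tested rose and 29.9% fell. Acr, the acrosomal protease acrosin, was at 7.60, 8.35 and 10.10 in leptotene/zygotene, 11.80 in late pachytene and 12.42 and 12.84 in diplotene, a change of 3.67 ± 0.67 (SE; adjusted p = 0.000143). All late arrays were above all early ones. Dpy19l2, needed to anchor the acrosome, rose by 3.62, Acrbp by 3.52 and Zpbp2, a zona pellucida binding protein gene, by 3.26. Adam18, of the sperm surface ADAM family, rose by 4.10, Adam1b, a fertilin subunit gene, by 3.86, Adam32 by 3.60 and Cmtm2a by 3.32. Izumo1, the sperm protein that binds the egg, rose by 1.89, and Ace (-0.07) and Calr3 (0.19) did not pass.

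The acrosome count rested on diplotene. Its list median was 7.26, 7.35 and 7.93 in leptotene/zygotene, 7.57 in late pachytene and 9.11 and 10.07 in diplotene, so late pachytene lay among the early arrays. Without leptotene/zygotene array 2, or without diplotene array 2, 9 acrosome genes rose, and with late pachytene alone 3 acrosome and 6 fertilin genes did. Median levels in the Spo11-/- leptotene/zygotene array were 3.59 for acrosome and 3.62 for fertilin genes.

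Spermatid genes, which encode the packaging proteins and structures of the haploid cell, gave 6 rises and 0 falls of 24 and a median change of -0.13, and their share of rises was near the 25.2% of all genes tested. Catsper2, a subunit of the sperm calcium channel, rose by 2.77, Actl7b by 2.69, Dnajb3 by 2.59 and Sun5 by 2.50. The protamine genes Prm1 (-0.90) and Prm2 (-0.95) and the transition protein genes Tnp1 (-0.71) and Tnp2 (-0.76) did not pass. The list's median level was 8.80, 8.98 and 9.67 in the wild-type leptotene/zygotene arrays, against 8.66 in late pachytene and 10.20 and 9.97 in diplotene. In the wild-type spermatogonia arrays it was 11.61, 12.79, 9.88 and 9.36, and in round spermatids 12.02 to 12.71. The Spo11-/- leptotene/zygotene array had a median of 3.11. Wild-type early fractions thus held spermatid transcripts at levels the knockout fraction did not show, and the part of this in the changes reported here was not tested. With 1 array left out, 2 to 7 genes of the list rose: 3 without leptotene/zygotene array 1 or 2, and 2 without diplotene array 2; without late pachytene the median change was 0.37. Without diplotene array 1, 2 of them fell, and without leptotene/zygotene array 2, 1 did; the rise of Sun5 was lost without any 1 of leptotene/zygotene arrays 1 and 2 and both diplotene arrays (adjusted p 0.0566 to 0.147), and that of Dnajb3 without leptotene/zygotene array 1 (0.0674) or diplotene array 2 (0.0531).

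**Figure D3:**
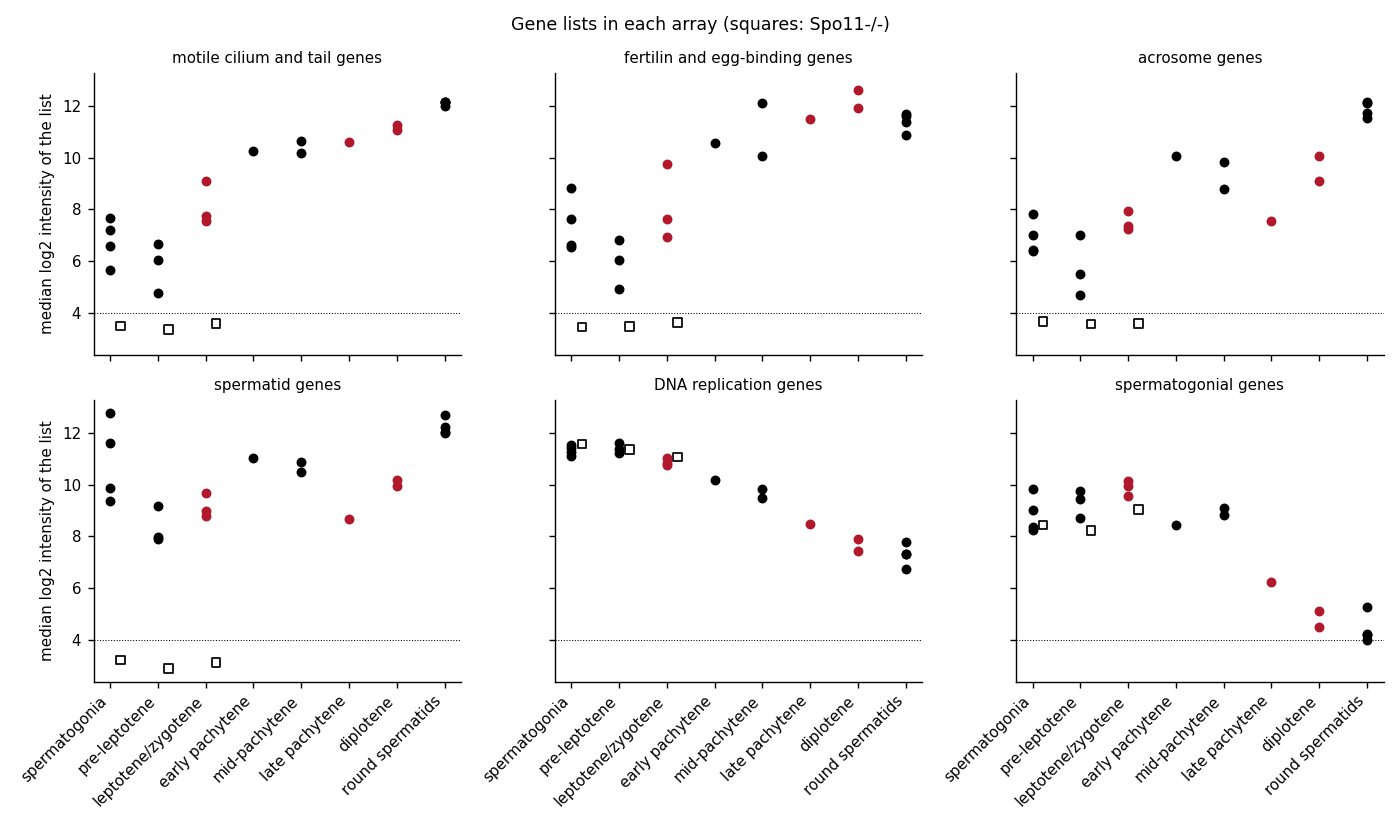
Median log2 intensity of 6 gene lists in each array, by sorted fraction in the order of spermatogenesis; red circles are the 6 arrays compared, black circles the other wild-type arrays, open squares the Spo11-/- arrays and the dotted line log2 4. Squares lie below log2 4 for cilium, fertilin, acrosome and spermatid genes (3.11 to 3.62 in leptotene/zygotene) and near the wild-type arrays for DNA replication (11.08) and spermatogonial genes (9.04).

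The low level of late genes in the Spo11-/- fraction reached beyond these lists. That array was at least 1 below every wild-type leptotene/zygotene array for 27.0% of the genes that rose, 3.10% of those that fell and 10.6% of all genes tested. Over genes that rose, the median level was 6.63, 6.81 and 7.48 in the wild-type leptotene/zygotene arrays and 5.32 in the knockout one, and 9.35, 9.51 and 9.51 in late prophase. Over genes that fell it was 8.79, 8.75 and 8.66 in the wild-type arrays and 8.93 in the knockout one. A knockout testis lacks later germ cells, because its spermatocytes arrest before mid-pachytene, and its array has no replicate.

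Germ cell transcription factor genes rose in 14 of 23 cases and fell in 5, beside 25.2% and 29.9% of all genes tested. Their median change was 1.87. Mybl1, the MYB family factor that switches on pachytene genes, was at 6.51, 6.84 and 7.43 in leptotene/zygotene, 10.31 in late pachytene and 10.00 and 10.03 in diplotene. The late arrays had an SD of 0.17 (n = 3) and lay far above all early ones, and the change was 3.19 ± 0.35 (SE; adjusted p = 7.90e-07). Rfx4 rose by 4.17, Ovol2 by 3.72 and Rfx2, a regulator of ciliary genes, by 3.37. Crem, the cAMP-responsive factor of spermatids, was at 6.71, 7.70 and 9.21 in leptotene/zygotene, 10.82 in late pachytene and 10.87 and 11.89 in diplotene, a rise of 3.32 (SE 0.67, adjusted p = 0.000369). Brdt, the testis bromodomain reader of acetylated histones, rose by 2.83. The falls were led by subunits of the general factor TFIID: Taf9b fell by 5.31, Taf7l by 4.64 and Taf4b by 4.38, and Taf9b and Taf7l are X-linked.

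Motifs of these factors were looked for in RefSeq promoters (250 bases before to 50 after the start, both strands, build GRCm38.p6), which matched 10597 of the 13087 genes. Shares are of genes with a promoter, except that those of all 32851 promoters of that length count single promoters. The units therefore differ. The MYB family motif GCAGTTG was found for 5.87% of genes that rose, 3.56% of those that fell and 4.50% of all genes tested, and in 3.98% of all single promoters. The X-box motif bound by RFX factors was in 2.58%, 0.774%, 1.45% and 1.18% of the same sets, and the CREM motif TGACGTCA in 3.29%, 3.50%, 3.47% and 1.79%. Among the 156 genes with a promoter that rose by 4 or more, the MYB motif was found for 8.97% and the CREM motif for 3.21%. The X-box was found for 1.28%, below its share among all genes tested. Most genes of every set held none of them. Each motif was searched without regard to the others. The following 100 bases before the start of 4 genes, taken on the gene's own strand with the motif in capitals, show a MYB motif in Piwil1 and in Zpbp2 (there on the opposite strand), and contrast Fam50b, an autosomal retrogene that rose, with its X-linked parent Fam50a, which fell. They were chosen after the matches were seen: of the genes named by rule, the MYB motif was also in Taf1, Taf7l and Acta2, which fell. The CREM motif in Fam50a reads alike on both strands.
Piwil1: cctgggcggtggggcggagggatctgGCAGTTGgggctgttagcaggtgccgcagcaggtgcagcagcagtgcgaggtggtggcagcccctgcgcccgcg
Zpbp2: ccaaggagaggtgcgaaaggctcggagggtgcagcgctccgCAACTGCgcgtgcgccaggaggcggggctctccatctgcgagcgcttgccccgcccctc
Fam50b: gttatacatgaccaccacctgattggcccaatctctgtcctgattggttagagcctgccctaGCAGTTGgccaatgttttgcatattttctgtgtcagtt
Fam50a: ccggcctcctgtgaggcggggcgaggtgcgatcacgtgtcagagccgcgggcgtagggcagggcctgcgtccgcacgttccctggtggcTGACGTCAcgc
They lie at chr5:128736146-128736245, chr11:98550997-98551096, chr13:34734750-34734849 and chrX:74312933-74313032, all on the plus strand. The motif starts 74, 59, 38 and 11 bases before the annotated start. A match describes the letters of the window and no binding was measured.

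Germ cell RNA-binding genes rose in 15 of 28 cases and fell in 4, beside 25.2% and 29.9% of all genes tested. Their median change was 1.11. Piwil1, the PIWI protein that carries pachytene piRNAs, was at 9.91, 10.41 and 9.88 in leptotene/zygotene, 14.08 in late pachytene and 13.49 and 13.18 in diplotene. Its change was 3.52 ± 0.33 (SE; 11.5-fold; adjusted p = 1.39e-07), with no overlap. Pabpc6 and Pabpc2, testis poly(A)-binding protein genes, rose by 3.41 and 3.24, and Boll, of the DAZ family, by 3.10. Its relative Dazl fell: its arrays were at 14.08, 13.99 and 14.43 in leptotene/zygotene, 11.35 in late pachytene and 10.40 and 9.66 in diplotene, a change of -3.70 ± 0.50 (SE; adjusted p = 7.07e-06). Cpeb1 fell by 5.01. Piwil2 (-0.60) and Ddx4 (0.55), germ granule genes of earlier cells, did not pass.

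Energy isozyme genes gave 14 rises and 9 falls of 31 tested, beside 25.2% and 29.9% of all genes tested, and a median change of 0.89. Ldhc, the germ cell lactate dehydrogenase, was at 13.11, 12.80 and 14.19 in leptotene/zygotene and at 15.40, 15.41 and 15.45 in late pachytene and diplotene, a rise of 2.05 (SE 0.43, adjusted p = 0.000479). Testis forms that rose included Cyct (2.64), Cox6b2 (2.96), Pgam2 (3.13) and Pdha2 (3.28), and the general forms Cycs (-4.02), Cox6b1 (-3.25), Pgam1 (-3.40) and Pdha1 (at least 7.84-fold lower) fell. Hk2, a hexokinase gene, fell by 4.24 and Pfkm, the muscle phosphofructokinase gene, rose by 3.58. The pattern did not hold for each isozyme, since the sperm-specific Gapdhs (-0.70) did not pass and Slc25a31, the germ cell ADP/ATP carrier gene, fell by 1.16. Among general forms, Ldha, the counterpart of Ldhc, rose by 3.22.

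Of 29 meiotic division genes, 12 fell and 4 rose, with a median change of -0.62; of all genes tested 29.9% fell and 25.2% rose. Sgo1, the guardian of centromeric cohesion, fell by 4.29, and Cks1b by 3.51; the phosphatase gene Cdc25b was below log2 4 in all late arrays, with a bound of -2.88. The kinase gene Aurkc rose by 3.25, Hspa2, the testis chaperone needed to leave prophase, by 2.15, and Ccna1, the meiotic cyclin A, by 2.55. Ccna1 was at 7.08, 8.05 and 10.35 in leptotene/zygotene, 9.78 in late pachytene and 11.09 and 12.26 in diplotene. Its groups overlapped, because late pachytene lay under leptotene/zygotene array 3. The rise of Ccna1 (adjusted p = 0.00815) was lost without leptotene/zygotene array 1 (0.0578) or diplotene array 2 (0.0531), and in each of those fits 2 genes of the list rose. Cdk1 (-0.43) and Ccnb2 (0.50) did not pass.

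The list labelled testis-specific kinase genes gave 4 rises and 1 fall of 13, beside 25.2% and 29.9% of all genes tested. Not all its members are confined to testis, since it also held Prkaca, Csnk2a2 and Csnk1g2. Stk33 rose by 3.68, Mak, a kinase of the ciliary axoneme, by 3.20, Tssk4 by 2.11 and Tssk1 by 1.68, and Camk4 fell by 2.01. Without diplotene array 2, 2 genes rose and Tssk4 (adjusted p = 0.0110) was lost (0.0588). Tssk2 (0.69), Tssk3 (0.31) and Tssk6 (-0.64), which act in spermatids, did not pass.

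Of 10 crossover genes 3 rose and 2 fell, near the shares among all genes tested (25.2% and 29.9%). Mlh3, of the complex that marks crossovers, was at 7.69, 7.90 and 7.73 in leptotene/zygotene, 10.19 in late pachytene and 9.95 and 9.45 in diplotene, a rise of 2.09 (SE 0.25, adjusted p = 2.02e-06). Mus81, an endonuclease gene, rose by 2.52 and Msh4 by 1.31. The X-linked Tex11 fell by 5.91 and the nuclease gene Exo1 by 3.06, and Msh5 (0.69) and Cntd1 (0.50) did not pass.

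Of 16 axis and synaptonemal complex genes 3 rose and 4 fell, beside 25.2% and 29.9% of all genes tested. Sycp3, the axis protein by which spermatocytes are staged, was at 13.20, 13.56 and 13.25 in leptotene/zygotene, 13.93 in late pachytene and 13.44 and 13.19 in diplotene. The groups overlapped and the change was 0.18 ± 0.24 (SE; adjusted p = 0.543). Trip13, the ATPase that clears HORMAD proteins, fell by 3.34, Smc3 by 3.13 and Syce2 by 2.37. Meikin, which protects centromeric cohesion at the meiotic divisions, was at 3.43, 3.89 and 3.95 in the early arrays and at 8.26, 7.98 and 7.77 in the late ones, at least 16.0-fold higher (adjusted p = 4.57e-08). Sycp1 (-0.73), the transverse filament gene, did not pass.

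Meikin was among the genes that went from below log2 4 in every early array to the highest late levels. Mirg, a non-coding RNA gene, was at 2.69, 2.59 and 3.43 in leptotene/zygotene, 7.94 in late pachytene and 8.39 and 8.29 in diplotene, at least 18.5-fold higher (adjusted p = 3.33e-09). Dcdc2a, a doublecortin family gene, was at 8.93 in late pachytene and 7.91 and 7.73 in diplotene, at least 18.3-fold higher than in leptotene/zygotene, and was back at 3.65 to 4.97 in round spermatids. The zinc finger gene Zfp54, the ephrin receptor gene Epha10, the homeobox gene Irx5, the potassium channel gene Kcng4 and the kinase gene Mapk15 completed this set, with bounds of 4.02 to 4.10 on the log2 scale. Other large rises were those of genes with at least 1 leptotene/zygotene array at log2 4 or more. Phactr3, a phosphatase and actin regulator gene, was at 3.13, 3.74 and 4.45 in leptotene/zygotene, 8.78 in late pachytene and 8.86 and 9.26 in diplotene. Its early mean was below log2 4, as were those of Dpp10 and Lrrc61, and each had 1 of 3 early arrays above that level; their rises were at least 31.3-fold for Phactr3, 23.3-fold for Dpp10 and 30.5-fold for Lrrc61. The transporter gene Abca14 rose by 5.18, Daw1, an assembly factor of ciliary dyneins, by 5.10, the serine protease genes Prss56 and Prss42 by 5.04 and 5.03, Cntnap2 by 5.03, Ppp1r1c by 4.98, and the histone H2B gene H2bc21 by 4.97.

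Heat shock and proteostasis genes gave 7 rises and 3 falls of 21, beside 25.2% and 29.9% of all genes tested. Hsf5, a heat shock factor of spermatocytes, rose by 3.37, Dnajb13 by 2.95 and Psma8, the testis proteasome subunit, by 2.27. Its general counterpart Psma7 fell by 3.35, and the chaperone gene Hspa8 by 2.46. Hsf5 was at 8.14, 8.40 and 9.83 in leptotene/zygotene against 12.14, 12.26 and 12.07 in the late arrays, and at 2.51 in the Spo11-/- array.

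Histone acetyltransferase genes, whose marks the series is titled for, fell in 12 of 24 cases and rose in 3. Among all genes tested 29.9% fell and 25.2% rose, and the list's median change was -0.96. Without diplotene array 2, or with the mean of all probe sets, 10 genes of the list fell. Without diplotene array 2 and leptotene/zygotene array 3 together, 9 did. Crebbp was at 12.19, 12.61 and 12.45 in leptotene/zygotene, 9.20 in late pachytene and 8.91 and 8.57 in diplotene, and Ep300, its paralogue, at 10.66, 10.32 and 10.66 against 8.17, 8.12 and 7.83. Both fell without overlap, Crebbp by 3.52 (SE 0.28, adjusted p = 3.93e-08) and Ep300 by 2.51 (SE 0.25, adjusted p = 2.69e-07). Hat1, which acetylates new histone H4, fell by 3.66, the X-linked Taf1 by 5.36 and Naa60 by 2.67. Kat5, Kat8 and Gtf3c4 rose by 2.22, 2.03 and 1.70. Histone deacetylase genes gave 4 rises and 5 falls of 16, near the shares of all genes tested (25.2% and 29.9%). The rises were those of the sirtuins Sirt5 (2.89), Sirt2 (2.57), Sirt4 (2.49) and Sirt3 (2.07), and the X-linked Hdac6 (-5.43) and Hdac2 (-2.74) led the falls. Their falls numbered 3 without leptotene/zygotene array 1 or 3 and without diplotene array 1 or 2.

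X-linked genes fell far more often than autosomal ones. Of 419 X-linked genes tested, 288 (68.7%) fell and 8 (1.91%) rose, against 28.7% and 25.9% of 12586 autosomal genes, and the median change was -2.65 on the X and between -0.18 and 0.15 on each autosome. Of 369 X-linked genes above background in leptotene/zygotene, 86 (23.3%) were below log2 4 in every late array, against 6.39% of 11259 autosomal genes. The median X-linked level minus the median autosomal level was -0.37, -0.76 and -1.08 in the leptotene/zygotene arrays (mean -0.73 ± 0.35, SD, n = 3). It was -3.10 in late pachytene and -2.85 and -3.48 in diplotene (mean -3.14 ± 0.32, SD, n = 3). The groups did not overlap, and the difference of -2.41 gave p = 0.1 in a two-sided exact permutation test, the smallest p that 3 arrays against 3 allow. The same measure was -1.42 in early pachytene, -1.72 and -2.38 in mid-pachytene, -1.90 to -2.86 in round spermatids and 0.01 in the Spo11-/- leptotene/zygotene array. Without a filter on low values the difference was -1.09.

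**Figure D4:**
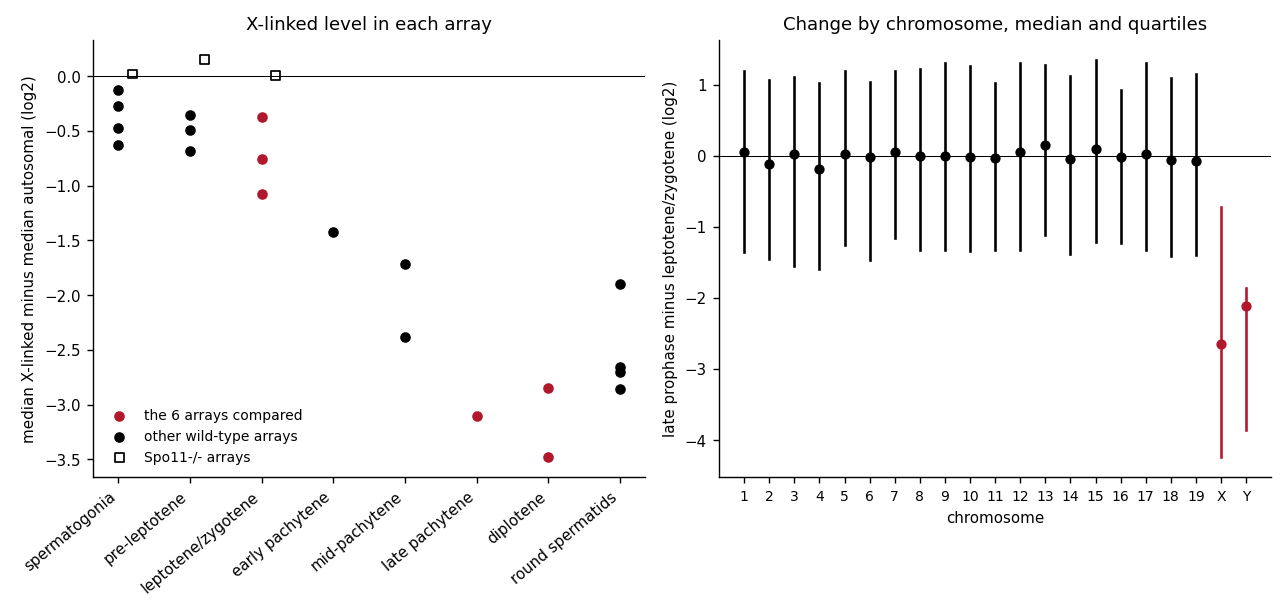
Left, the gap in each array between the median log2 level of 419 X-linked genes and that of 12586 autosomal ones (X-linked minus autosomal), with the 6 arrays compared in red, other wild-type arrays in black and Spo11-/- arrays as open squares; right, median and quartiles of the change (log2) on each chromosome, X and Y in red. The late prophase arrays lie between -3.48 and -2.85 and the leptotene/zygotene arrays between -1.08 and -0.37, and the X and Y medians (-2.65 and -2.12) lie apart from those of all autosomes.

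Of 14 sex chromosome silencing genes 3 rose and 5 fell, near the 25.2% and 29.9% of all genes tested. Mdc1, which spreads the DNA damage signal over the sex body, was at 7.99, 9.16 and 8.28 in leptotene/zygotene, 10.82 in late pachytene and 10.66 and 10.54 in diplotene, a rise of 2.20 (SE 0.33, adjusted p = 2.26e-05). Macroh2a1, a histone of the sex body, rose by 1.37 and the kinase gene Atr by 1.02. The ubiquitin ligase gene Ubr2 fell by 5.06 on the probe set used, Etaa1 by 2.59 and Topbp1 by 1.45, and H2ax (0.92) did not pass. Another Ubr2 probe set fell by 3.72, and a further one differed by only -0.25, from a mean of 4.98 to 4.73. Without diplotene array 2, 5 genes of the list rose.

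Of 7 Y-linked genes tested, 6 fell: Uba1y by 4.88, Usp9y by 4.23, Eif2s3y by 3.49 and Zfy2 by 1.62, while Kdm5d and Uty were below log2 4 in all late arrays and at least 2.73-fold and 2.14-fold lower. Uba1y, a ubiquitin-activating enzyme gene, was at 13.43, 13.52 and 13.16 in leptotene/zygotene, 9.23 in late pachytene and 8.81 and 7.41 in diplotene. The late arrays of Zfy2 overlapped the early ones, and Orly (0.23) did not pass.

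The X-linked genes that rose were at or near background in leptotene/zygotene. Samt2b was at 3.13, 3.20 and 3.56 in leptotene/zygotene, 4.87 in late pachytene and 6.44 and 7.21 in diplotene, at least 4.50-fold higher (adjusted p = 0.000112). Cldn34d, Samt4, Fam47c, Fthl17a and 4933436I01Rik were also below log2 4 in all early arrays, and their bounds were 0.84, 0.79, 0.91, 0.92 and 1.06 on the log2 scale, 4 of them under the fold minimum of the test. Akap14 and 4933428M09Rik, with 1 of 3 early arrays above that level, were at least 2.73-fold and 3.01-fold higher. All 8 had their highest levels in round spermatids, where Samt2b was at 8.29 to 9.90. The count depended on single arrays: 17 X-linked genes rose without late pachytene and 4 without diplotene array 2. The rises of Cldn34d and Samt4 were lost without diplotene array 2 (adjusted p 0.108 and 0.0796), that of Fam47c without diplotene array 1 (0.0718), and that of Fthl17a without any 1 of leptotene/zygotene arrays 1 and 2 and both diplotene arrays (0.0530 to 0.126).

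Several X-linked housekeeping genes have autosomal copies made by retroposition that are used in germ cells. Of 14 such pairs listed, both genes were tested in 11; in 10 the X-linked gene fell, in 6 the retrogene rose, and in those 6 both happened. For comparison, 68.7% of all X-linked genes tested fell and 25.9% of autosomal genes rose. Fam50a was at 10.05, 9.79 and 9.77 in leptotene/zygotene, 5.59 in late pachytene and 5.36 and 3.67 in diplotene, a change of -4.99 ± 0.63 (SE; 31.9-fold lower; adjusted p = 3.22e-06). Its retrogene Fam50b was at 6.33, 6.52 and 7.97 in the early arrays and at 10.96, 11.11 and 11.29 in the late ones, a change of 4.18 ± 0.66 (SE; 18.1-fold higher; adjusted p = 3.38e-05). In both genes the groups lay well apart, in opposite directions. The centrin genes Cetn2 and Cetn1 changed by -4.96 and 3.42, the mitochondrial import genes Timm8a1 and Timm8a2 by -4.87 and 2.65, the RNA helicase genes Ddx3x and D1Pas1 by -4.05 and 2.40, while the pyruvate dehydrogenase gene Pdha1 was at least 7.84-fold lower, with 1 of 3 late arrays at log2 4 or more, and Pdha2 rose by 3.28. For the phosphoglycerate kinase genes Pgk1 and Pgk2 the changes were -2.41 and 1.69. The rise of Pgk2 (adjusted p = 0.0317) was lost without any 1 of leptotene/zygotene arrays 1 and 2 and both diplotene arrays (0.0699 to 0.146).

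In the other pairs the retrogene did not pass. Cstf2 fell by 4.48 while Cstf2t, which encodes a cleavage stimulation factor subunit, changed by 0.39 ± 0.29 (SE; adjusted p = 0.250). Rps4x fell by 3.00, Mcts1 by 1.86 and Utp14a, at log2 4 or more in 1 of 3 late arrays, at least 22.8-fold, beside changes of -0.91 for Rps4l, 0.53 for Mcts2 and 0.73 for Utp14b. Neither gene of the splicing factor pair Rbmx (-0.97) and Rbmxl2 (-0.11) passed. Leaving out single arrays moved some of these past the threshold: Utp14b rose without late pachytene (1.04), Rps4l fell without leptotene/zygotene array 1 (-1.04), and Rbmx fell without diplotene array 1 (-1.05) or 2 (-1.11). Near-identical copies may share probes, which was not checked.

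**Figure D5:**
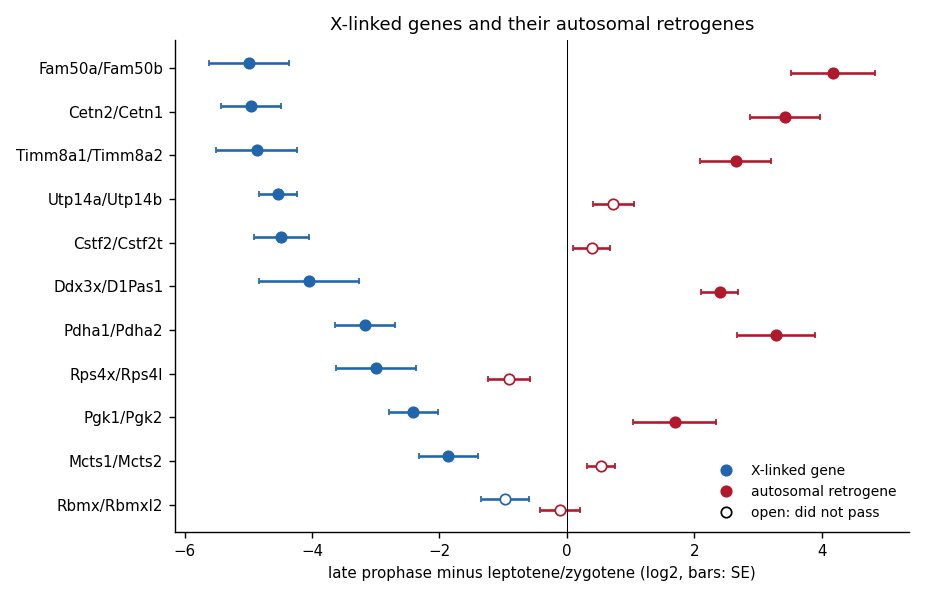
Change (late prophase minus leptotene/zygotene, log2) with its standard error for the X-linked gene (blue) and the autosomal retrogene (red) of 11 pairs; open circles did not pass. Fam50a and Fam50b lie farthest apart, at -4.99 and 4.18, and the retrogenes Cstf2t, Utp14b, Mcts2, Rbmxl2 and Rps4l lie within 1 of 0.

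The late-pachytene array was not alike to the diplotene arrays in all genes. It was at least 1 above both diplotene arrays for 272 genes (2.08% of those tested), of which 230 fell and 13 rose, and at least 1 below both for 710 (5.43%), of which 299 rose and 55 fell. Among genes that rose, the median change from the mean of the leptotene/zygotene arrays was 2.08 in late pachytene and 2.34 and 2.40 in diplotene, and among genes that fell it was -2.19 against -2.29 and -2.73. Cenpa and Ccna1, given above, are examples of each kind. With late pachytene alone 5863 genes passed, and with diplotene alone 7361. With 1 late-pachytene array these differences have no test.

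Markers of other testis cells were mostly low or did not pass. Of 36 such genes tested, in 6 lists, 0 rose and 3 fell, beside 25.2% and 29.9% of all genes tested. The Sertoli cell gene Ctsl fell by 2.68, the Leydig cell gene Cyp17a1 fell by 2.46 and the smooth muscle actin gene Acta2 fell by 1.81. Median levels of the Sertoli list were 8.44, 8.27 and 7.70 in leptotene/zygotene, 5.95 in late pachytene and 8.42 and 6.97 in diplotene, while Sox9, Amh and Gata4 among its defining genes did not reach log2 4 in enough arrays to be tested. Of 11 leukocyte genes, 9 were below log2 4 in all 6 arrays, and their median levels ran from 2.63 to 2.92. The part of these cells in the results above was not tested. Without diplotene array 1, 6 Sertoli cell genes fell. The call of Cyp17a1 was lost without late pachytene (adjusted p = 0.0867), and that of Acta2 without leptotene/zygotene array 1 (0.0833); another probe set of Acta2, near background, differed in the opposite direction. Without leptotene/zygotene array 1, 2 Leydig cell genes fell, and without array 2, 2 peritubular and stromal genes did.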

How the data were processed

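RNA of sorted mouse germ cells was hybridised to Affymetrix arrays. The authors deposited linear intensity values made with GCRMA, per the submitters' processing notes, for 45037 probe sets on 23 arrays; its version and settings are not given in the sources used here. The median deposited intensity was 10.63 to 12.56 per array, and 44.2% to 47.3% of probe sets reached log2 4. The number of arrays limits the precision.

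Values were taken as log2(intensity + 1). Of the probe sets, 34945 had 1 gene symbol, 932 several and 9160 were unnamed; 34741 joined RefSeq genes of GRCm38.p6, and symbols follow RefSeq. For each of 18193 genes the probe set with the highest mean was kept (9010 genes had several). The 13087 genes at log2 4 or more in at least 2 of the 20 wild-type arrays were tested with limma 3.58.1 (R 4.3.3), late pachytene and diplotene forming 1 group, and Benjamini-Hochberg adjustment over all of them. A change with a group below log2 4 on every array, or in its mean, is given as a bound, the brighter group's mean against log2 4. The script was tested on simulated data. The members of the comparison and the gene lists were chosen with earlier results of these data known. Genes named with full values were, among calls without overlap, the 10 largest rises and falls with at least 1 array at log2 4 or more in each group, the 8 highest among those below log2 4 in the other group, up to 4 members of each list by size of change, the retrogene pairs, X-linked rises and a few meiotic genes; other list members were named after their values were seen. Alternatives covered the filter, pseudocount, probe set rule, scaling, arrays fitted, fold minimum, replicate block and each array left out; 1, leaving out leptotene/zygotene array 3 with diplotene array 2, was chosen after seeing the data.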

Additional observations from a re-analysis of the deposited data

How the results depend on the processing

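Over the alternatives run, 5863 (late pachytene alone) to 8181 (no fold minimum) genes passed, within 1.5 times the 7204 reported, except that a fold minimum of log2 2 left 4320. With 1 array left out, 6810 to 7361 passed. The X-linked minus autosomal difference stayed negative, from -2.71 (filter at log2 5) to -1.09 (no filter on low values), and -2.58 to -2.23 with 1 array left out. Quantile normalization gave 7180 calls, 49.0% of them higher, against 45.8%. Diplotene and leptotene/zygotene arrays share the replicate numbers 1 and 2, and the late-pachytene array has none. Deviations of same-numbered arrays correlated at 0.43 and 0.16, and those of leptotene/zygotene array 3 and diplotene array 2 at 0.27. Deviations of the 2 diplotene arrays mirror each other, so these values do not show that the numbers pair the samples. With the replicate block, on diplotene alone, 7599 genes passed. Of 142 called genes named by rule, 121 kept their call under every alternative, 21 lost it under at least 1 (19 with late pachytene alone, 5 with a pseudocount of 16) and 0 changed direction. With a pseudocount of 16 the change of Prdm9 was -0.94, under the fold minimum. With the mean of all probe sets that of Acta2 was -0.25. In the fit on the 6 arrays alone Ccna1 had an adjusted p of 0.0524.

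Signs turned only for genes that did not pass, and the cause was not tested. C1qb was at -0.15 with the replicate block and Vwf at 0.14 with array weights. Hba-a2 was at -0.02 (quantile normalization), -0.01 (pseudocount 16), -0.27 (late pachytene alone) and -0.24 (array weights). Rbmxl2 was at 0.23 with late pachytene alone and 0.29 without leptotene/zygotene array 3 and diplotene array 2. Sycp3 was at -0.03 with diplotene alone. With 1 array left out, Cd3e ran from -0.36 to 0.01, Hba-a2 from -0.32 to 0.43, Rbmxl2 from -0.32 to 0.14 and Sycp3 from -0.03 to 0.34. Array weights stopped before convergence. Levels under log2 4 carry no order, which bounds 523 falls and 398 rises.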

Other observations

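The genes that rose did not share 1 later course. For 826 of the 3297 (25.1%) every round spermatid array was below every late prophase array, as for Lrrc61, at 5.27 to 6.55 in round spermatids against 8.18 to 9.33 in late prophase, and for Dcdc2a. For 727 (22.1%) every round spermatid array was above, as for the X-linked Samt2b. Both mid-pachytene arrays lay between the groups for 1664 of the genes that rose (50.5%) and 2336 of the 3907 that fell (59.8%). Of the genes that fell, 518 (13.3%) were higher in every round spermatid array than in every late prophase array, and 676 (17.3%) were lower still. Round spermatids are not part of the groups compared, and these counts are descriptions with no test.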
